A study of Danio rerio with 2 samples.

Results

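Embryonic globin genes of the zebrafish (*Danio rerio*) were followed across the erythroid and neural cells of 2 single-cell RNA libraries. The genes were chosen by symbol and are *hbae1.1*, *hbae1.3*, *hbae3* and *hbae5* of the alpha type and *hbbe1.1*, *hbbe1.2*, *hbbe1.3*, *hbbe2* and *hbbe3* of the beta type. These 9 symbols stood for 10 of the 27771 gene identifiers in the count tables, because the symbol *hbae1.3* was given to 2 identifiers. Of these, ENSDARG00000088330 has the name *hbae1.2* in a table of gene names and is called so below, and ENSDARG00000089124 keeps the name *hbae1.3*. Between 28 hpf (hours post fertilization) and 60 hpf, the share of *hbbe3* in the globin transcripts of erythroid cells went from 14.45% to 2.65%, while that of *hbbe2* went from 0.728% to 1.78% and that of *hbbe1.3* from 25.5% to 37.4%. The share of *hbbe1.1* went from 10.5% to 5.95%, and single erythroid cells fell into separate ranges of it. Nearly every neural-like cell also held a few globin transcripts, divided among the genes much as in the erythroid cells of the same library.

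Both libraries came from trunks of embryos with the genotype Tg(olig2:dsred), 1 library at 28 hpf and 1 at 60 hpf. The transgene puts a red fluorescent protein under control of *olig2*, a gene of the ventral spinal cord, so the sort was aimed at neural cells and erythroid cells were not its target. The trunks of many outcrossed embryos were pooled at each stage, dissociated with trypsin and collagenase and sorted for fluorescence, and the embryo of origin of a cell is not given in the sources used here. A further stage of the study was not analysed here. Both libraries were made with the 10x Genomics 3′ V3 chemistry, which tags RNA molecules near the 3′ end with unique molecular identifiers (UMIs), so UMI counts were compared between genes without division by gene length. Each stage had a single library, so no difference was tested, stage and library cannot be told apart, and every interval below is a 95% interval that covers counting error only.

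Hemoglobin carries oxygen in red blood cells as a tetramer of alpha-type and beta-type globin chains, each holding a heme group. In the zebrafish the genes of both chain types lie side by side in a pair of clusters, and embryonic genes are used in the first erythrocytes before the adult genes (*hbaa* and *hbba*) take over. The products of *hbae* genes are embryonic alpha-type chains and those of *hbbe* genes embryonic beta-type chains.

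A cell was called erythroid where 20% or more of its UMIs came from the listed genes, so the height of the globins in these cells was set by the rule and is no finding. Of the cells with at least 1000 detected genes, 722 of 8390 were erythroid at 28 hpf, or 8.61% (8.01 to 9.23, exact binomial), and 541 of 5517 at 60 hpf, or 9.81% (9.03 to 10.6). The threshold lay in a sparse range. At 28 hpf, 4 cells held 5 to under 20% globin UMIs, the nearest of them at 15.4% and 13.0%, and the cells just inside were at 20.4% and 20.5%. At 60 hpf, 9 cells held 5 to under 20%, the nearest at 16.8% and 15.6%, and the cells just inside were at 27.3% and 30.9%. Erythroid cells were deep, with a median of 33272 UMIs at 28 hpf and 31191 at 60 hpf, against 6956 and 6248 in the other cells. Their median number of genes was 2038 at 28 hpf and 1402 at 60 hpf.

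The listed genes gave 59.45% of the UMIs of erythroid cells at 28 hpf and 78.5% at 60 hpf, and the median cell held 19343 and 24179 globin UMIs. UMIs from other genes were fewer at 60 hpf, with a median of 5715 per erythroid cell against 12915 at 28 hpf. Across all cells with at least 1000 genes, 15.8% and 21.15% of UMIs came from these 10 identifiers, and 98.97% and 99.2% of those lay in erythroid cells. In all, 24 cell barcodes occurred in both libraries, 16 of them among the cells kept and 0 among erythroid cells.

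The erythroid label was checked with 14 markers outside the hemoglobin genes, among them *alas2*, the first enzyme of heme synthesis in red cells, *slc4a1a*, the anion exchanger of the red cell membrane, and *gata1a*, a transcription factor of the erythroid lineage. All 14 were at least 2-fold higher than in neural-like cells at both stages, with a median log2 ratio of 8.10 at 28 hpf and 9.30 at 60 hpf, on levels per 10000 UMIs outside hemoglobin genes. Over all genes with 20 or more UMIs, 11.7% were 2-fold higher and 52.9% 2-fold lower in erythroid cells at 28 hpf, and 14% and 51.4% at 60 hpf, with a median log2 ratio of -1.14 and -1.05. When the cells were clustered with all hemoglobin genes left out, 719 of the 722 cells and 527 of the 541 fell in clusters with erythroid markers. These clusters were named with the same 14 markers, so this check is not independent of the one above. Markers of neurons were lower in erythroid cells for 13 of 14 genes at both stages, and *gad1b* was higher at 60 hpf. Their summed level in erythroid cells was 4.34 UMIs per 10000 outside hemoglobin at 28 hpf and 13.4 at 60 hpf, against 41.7 and 103.5 in neural-like cells, and its part in the results below was not tested. Neural progenitor markers were lower for 11 of 11 genes at 28 hpf and 10 of 11 at 60 hpf. Oligodendrocyte markers were lower for 6 of 7 and 6 of 8, with *ppp1r14bb* higher at both stages. Markers of other trunk cells with enough UMIs were not all lower. Of the muscle markers, 6 of 11 were lower and 1 higher at 28 hpf, but 1 was lower and 0 higher at 60 hpf, with a median log2 ratio of 0.63 and a summed level of 2.91 against 2.06 in neural-like cells. Of the immune markers, 3 of 5 were lower and 1 higher at 28 hpf, and 0 and 1 of 5 at 60 hpf, with a summed level of 0.413 and 0.198 against 0.0581 and 0.0528. Of the endothelial markers, 3 of 6 were lower and 2 higher at 28 hpf, and 3 and 0 of 6 at 60 hpf. The part of these lists in the results was not tested either. Predicted doublets were 53 (7.34%) and 41 (7.58%) of the erythroid cells and were kept. Over all cells with at least 1000 genes they were 563 of 8390 and 243 of 5517. Their number in a library was set beforehand, at 0.8% for each 1000 cells, and the cells with the highest scores were taken.

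The alpha-type genes gave 38.3% (38.26 to 38.31) of the globin UMIs of erythroid cells at 28 hpf and 41.4% (41.34 to 41.40) at 60 hpf, and the beta-type genes the rest. In single cells the alpha share ran from 29.1% over a median of 38.1% to 53.1% at 28 hpf, and from 30.7% over 41.5% to 52.65% at 60 hpf. The SD over cells was 3.57 and 3.803 points, so the stages overlapped widely in this balance. The logarithms of the alpha and beta UMIs of a cell had a correlation of 0.95 at both stages, over 722 and 541 cells that share library and, within a cell, depth.

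Among the alpha-type genes *hbae3* (ENSDARG00000079305) was the most abundant, with 19.7% of globin UMIs at 28 hpf and 21.45% at 60 hpf. It was also the most even member across cells relative to its mean, from 14.7% over a median of 19.6% to 30.7% at 28 hpf, and from 16.1% over 21.3% to 42.4% at 60 hpf. The near-identical copies came next: *hbae1.2* had 8.69% and 10.6%, *hbae1.3* 6.92% and 6.76%, and *hbae1.1* (ENSDARG00000089475) 2.97% and 2.53%. Read together under the shared symbol, the identifiers of *hbae1.3* had 15.6% at 28 hpf and 17.3% at 60 hpf. The least abundant member was *hbae5* (ENSDARG00000045142), with 0.0497% (0.0486 to 0.0509) at 28 hpf and 0.0506% (0.0494 to 0.0518) at 60 hpf, or a median of 7 and 5 UMIs per erythroid cell.

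Among the beta-type genes *hbbe1.3* (ENSDARG00000087390) was the most abundant member at both stages. *hbbe1.2* (ENSDARG00000115405) had 10.6% at 28 hpf and 10.9% at 60 hpf. Cell Ranger counts a read only where it fits a single gene, so the split among near-identical copies is uncertain. The sum over *hbbe1.1*, *hbbe1.2* and *hbbe1.3* was 46.5% at 28 hpf and 54.2% at 60 hpf, and the sum over *hbae1.1*, *hbae1.2* and *hbae1.3* was 18.6% and 19.9%.

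**Figure D1:**
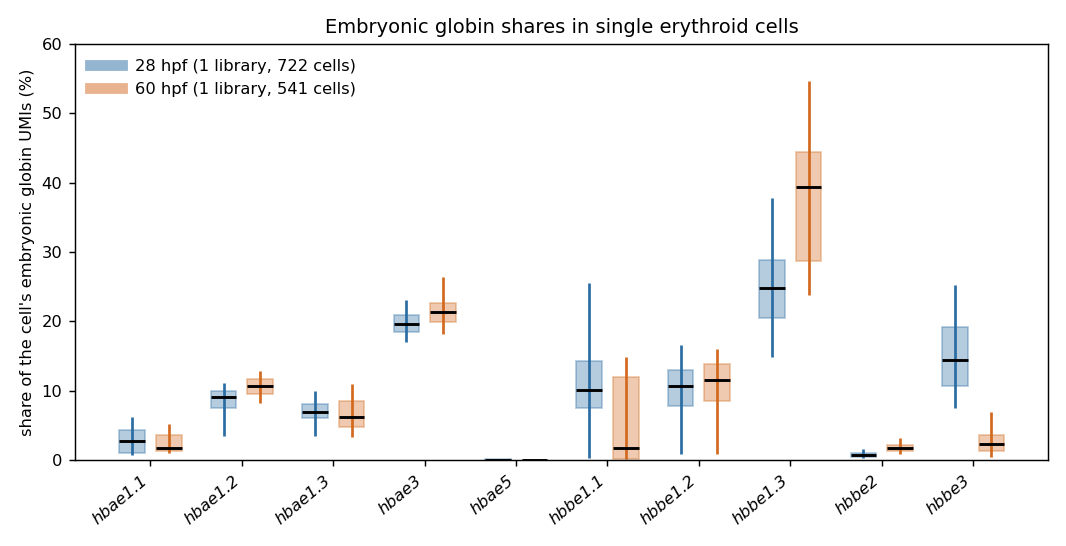
Share of each embryonic globin gene in the embryonic globin UMIs of single erythroid cells, in percent, for 28 hpf (blue, 722 cells) and 60 hpf (orange, 541 cells). Black lines are medians over cells, boxes the quartiles and vertical lines the 5th to 95th percentiles; the boxes of *hbbe3* and *hbbe2* do not overlap between stages, and those of *hbbe1.1* are wide.

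The clearest difference between the stages was in *hbbe3* (ENSDARG00000038147). In single cells its share ran from 3.99% over a median of 14.4% to 35.1% at 28 hpf, and from 0% over 2.29% to 11.6% at 60 hpf. Every erythroid cell at 28 hpf (100%) lay above the 60 hpf median, 97.2% lay above the 95th percentile of 60 hpf, and 0% of the cells at 60 hpf reached above the 28 hpf median. The log2 ratio of the shares, 60 hpf over 28 hpf, was -2.45 (-2.45 to -2.44). In UMIs per 10000 of all genes, *hbbe3* was at 858.9 at 28 hpf and 208.1 at 60 hpf, a log2 ratio of -2.05, so its level was lower and not its share alone.

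*hbbe2* (ENSDARG00000045143) went the other way. It ran from 0.0344% over a median of 0.688% to 2.54% of a cell's globin UMIs at 28 hpf, and from 0.339% over 1.68% to 5.08% at 60 hpf. Of the cells at 60 hpf, 97.8% lay above the 28 hpf median, and 59.9% above its 95th percentile. The log2 ratio of the shares was 1.29, and the level went from 43.3 to 139.6 UMIs per 10000.

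*hbbe1.3* ran from 5.97% over a median of 24.8% to 43.2% at 28 hpf, and from 14.5% over 39.4% to 61.5% at 60 hpf. Its log2 ratio was 0.55, and 93.35% of the cells at 60 hpf lay above the 28 hpf median. In points of share, 60 hpf minus 28 hpf, *hbbe1.3* was at 11.9, *hbbe2* at 1.051, *hbae1.2* at 1.895 and *hbae3* at 1.794. On the other side *hbbe3* was at -11.8 points and *hbbe1.1* at -4.509. The shares add up to a fixed total, so a lower share of a member appears as higher shares of others. The other alpha copies and *hbbe1.2* moved less, with log2 ratios of the shares of 0.28 for *hbae1.2*, 0.13 for *hbae3*, 0.04 for *hbbe1.2*, -0.03 for *hbae1.3* and -0.23 for *hbae1.1*. For *hbae5* the ratio of the shares summed over cells was 0.03 (-0.02 to 0.07), an interval that includes no difference.

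In the RefSeq gene table of assembly GRCz12tu, which is not the build of the files and was used for neighbours alone, the hemoglobin genes formed 2 runs of neighbours. The shorter run held *hbae4*, *hbbe3*, *hbbe2* and *hbae5*, and the other run the remaining members together with the adult genes. The listed genes of the shorter run gave 15.2% of the globin UMIs of erythroid cells at 28 hpf and 4.48% at 60 hpf. Within it the direct neighbours *hbbe3* and *hbbe2* went in opposite directions, while the share of *hbae5* summed over cells hardly differed. The cell median of *hbae5* was 0.0371% at 28 hpf and 0.0236% at 60 hpf, from a median of 7 and 5 UMIs per cell. At 28 hpf the share of the shorter run ran from 4.81% over a median of 15.1% to 36.6% of a cell's globin UMIs, and at 60 hpf from 0.617% over 4.17% to 12.6%.

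Single cells differed in the counted share of *hbbe1.1* (ENSDARG00000113599) far beyond counting error. The SD of its share over cells was 7.09 points at 28 hpf, where counting alone would give 0.244, and 6.22 points at 60 hpf, where it would give 0.173. An SD above that of counting was not particular to *hbbe1.1* and was found for every member. For *hbbe1.3* it was 6.70 against 0.348 at 28 hpf and 9.79 against 0.354 at 60 hpf. The shares of *hbbe1.1* fell into ranges, with an empty gap between the lowest range and the rest. At 28 hpf 76 cells held less than 0.5%, 0 cells held 0.5 to under 1%, and 646 held 1% or more, with 0.415% the highest value below the gap and 1.16% the lowest above it. At 60 hpf 257 cells held less than 0.5%, 0 cells held 0.5 to under 1% and 284 held more, with 0.447% and 1.18% at the edges. The edges of these ranges were set after the values were seen, and the ranges are given as a description with no test.

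Above that gap a further group of cells lay between 1 and 3%, with 82 cells at 28 hpf and 53 at 60 hpf, and most of the others at 7% or more. Between 3 and 7% lay 10, 1 and 5 cells at 28 hpf (in the steps 3 to 4, 4 to 5 and 5 to 7%) and 2, 0 and 0 at 60 hpf. Cells under 1% were 10.5% (8.38 to 13.0) of the erythroid cells at 28 hpf and 47.5% (43.2 to 51.8) at 60 hpf. Cells with 5% or more were 76.6% and 42.3%. Within the cells of 5% or more, *hbbe1.1* gave 13.2% of the globin UMIs at 28 hpf and 12.7% at 60 hpf, while the cells at 18% or more were 101 of 722 and 4 of 541. The lower share over all cells at 60 hpf thus went with more cells under 1% and fewer at 18% or more.

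**Figure D2:**
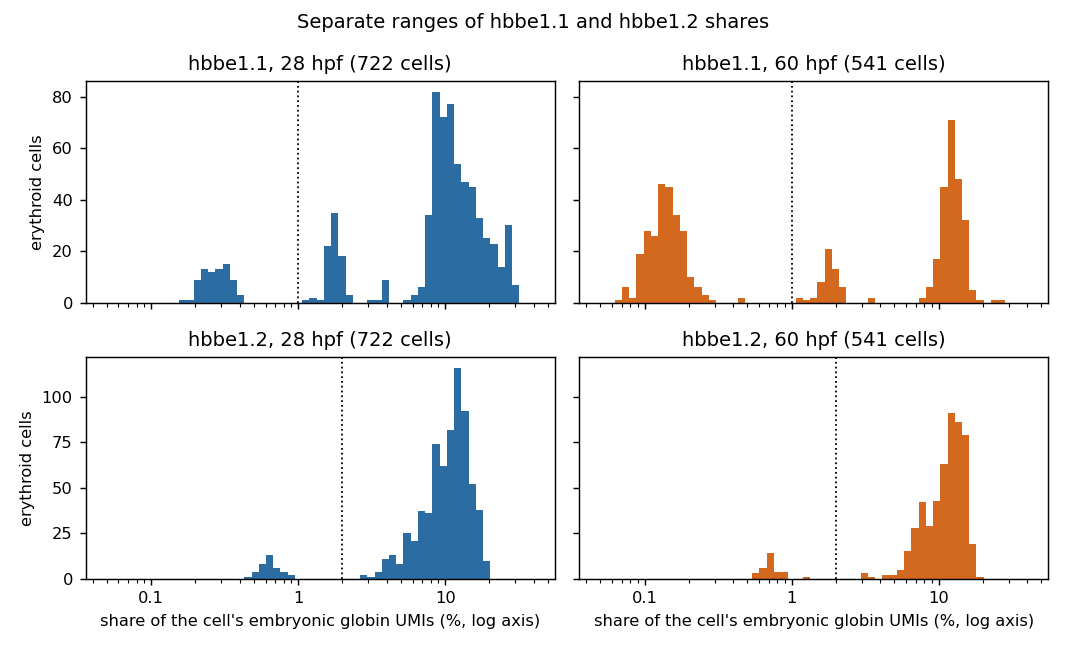
Number of erythroid cells by the share of *hbbe1.1* (upper row) and *hbbe1.2* (lower row) in the cell's embryonic globin UMIs, on a log axis, at 28 hpf (left, 722 cells) and 60 hpf (right, 541 cells). Dotted lines mark 1% for *hbbe1.1* and 2% for *hbbe1.2*; groups of cells to the left of the lines stand apart from the rest, with 76 and 257 cells for *hbbe1.1* and 38 and 32 for *hbbe1.2*.

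The cells under 1% still had UMIs counted as *hbbe1.1*, with a median of 58.5 at 28 hpf and 32 at 60 hpf. Neural-like droplets of the same libraries held a mean of 1.88 and 1.06 such UMIs, with a 95th percentile of 4 and 3. The split of counts among near-identical copies is uncertain, and its part in these UMIs was not tested. The erythroid cells under 1% had medians of 34496 UMIs and 2008 genes at 28 hpf and of 31171 and 1452 at 60 hpf. These were near those of all erythroid cells. At 60 hpf 161 of the 257 lay in the erythroid cluster that held 330 of the 541 cells, and predicted doublets were 4 of 76 and 18 of 257.

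Shares of other members differed between these ranges. At 28 hpf all 169 cells with under 5% *hbbe1.1* also had under 2% *hbae1.1*, its neighbour in the gene table, and at 60 hpf 294 of 312 did. Of the cells with 5% or more *hbbe1.1*, 422 of 553 at 28 hpf and 219 of 229 at 60 hpf had 2% or more *hbae1.1*. Over all erythroid cells, 41.55% at 28 hpf and 56.2% at 60 hpf were under 2% *hbae1.1*, and the rest at 2% or more. At 60 hpf, *hbbe1.3* gave 46.1% of the globin UMIs in cells under 1% *hbbe1.1* and 27.85% in cells of 5% or more, and *hbae1.3* gave 4.61% and 8.74%. At 28 hpf these shares were 33.8% and 23.5% for *hbbe1.3* and 4.07% and 7.34% for *hbae1.3*. The sum of the *hbbe1* copies varied less between the ranges, with cell medians of 50.6% under 1% and 45.8% at 5% or more at 28 hpf, and of 56.7% and 51.5% at 60 hpf.

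A separate low group was also present for *hbbe1.2*. At 28 hpf 38 cells (5.26%) held under 2% of it, the highest at 0.865%, and the next cell above was at 2.69%. At 60 hpf 32 cells (5.91%) did, the highest at 1.201%, and the next was at 3.02%. These low cells differed between the stages in their other shares. At 28 hpf all 38 had 18% or more *hbbe1.1*, and at 60 hpf all 32 had under 1% *hbbe1.1*. In them *hbbe1.1* gave 27.2% of the globin UMIs at 28 hpf, and *hbbe1.3* gave 57.6% at 60 hpf. What sets the ranges apart was not tested, and the embryo of each cell is not given. The split of counts among near-identical copies is uncertain, and its part in the ranges was not tested either.

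The difference in *hbbe3* between the stages was present on both sides of the gap. In cells under 1% *hbbe1.1*, *hbbe3* gave 14.1% of globin UMIs at 28 hpf and 3.11% at 60 hpf, a log2 ratio of -2.18. In cells of 1% or more it gave 14.5% and 2.26%, a log2 ratio of -2.68. For *hbbe2* the same ratios were 1.05 and 1.29, and for *hbae3* they were 0.11 and 0.13.

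*hbbe3* also varied with the globin content of a cell. At 28 hpf it gave 19.4% of globin UMIs in the 171 cells with 20 to under 50% globin and 13.5% in the 550 cells with 50 to under 80%. At 60 hpf it gave 3.51% in 19 such cells, 3.41% in 258 cells with 50 to under 80%, and 2.04% in 264 cells with 80% or more, a range that held 1 cell at 28 hpf. Over cells the correlation of the *hbbe3* share with the globin percent was -0.60 at 28 hpf (722 cells) and -0.26 at 60 hpf (541 cells), where both measures come from the same counts. Between cells of 50 to under 80% globin in both stages, the log2 ratio of *hbbe3* was -1.98 and that of *hbbe2* 1.36. In these cells *hbbe1.2* turned to -0.11 and *hbbe1.1* was at -1.04.

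**Figure D3:**
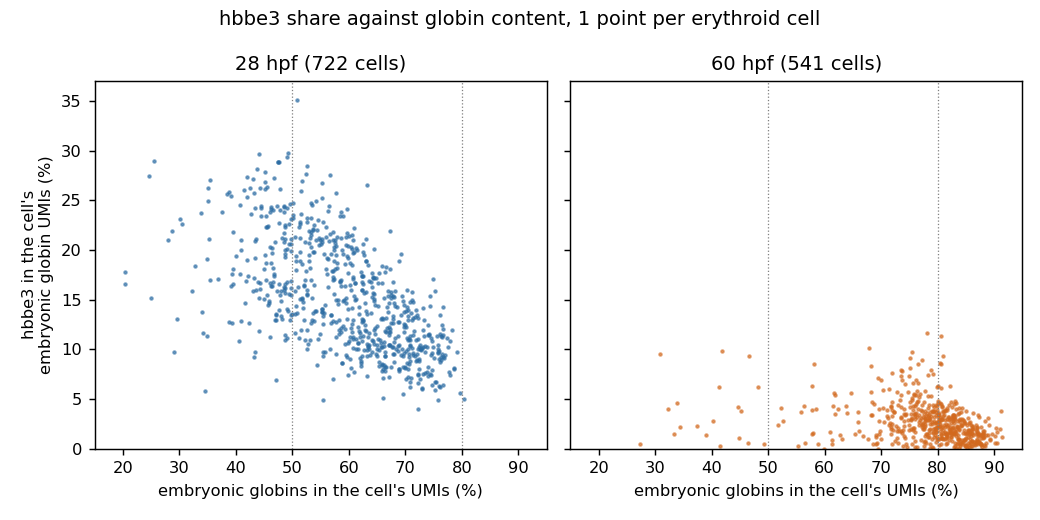
Share of *hbbe3* in a cell's embryonic globin UMIs against the percent of the cell's UMIs that came from the embryonic globins, 1 point per erythroid cell, at 28 hpf (722 cells) and 60 hpf (541 cells). Dotted lines mark 50 and 80%; the cells at 28 hpf spread from 3.99 to 35.1% and those at 60 hpf from 0 to 11.6%.

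Of the 14 erythroid markers, 13 had a higher level in cells with 50 to under 80% globin than in cells with 20 to under 50% at 28 hpf, with a median log2 ratio of 0.53, and all 14 did at 60 hpf, with 1.78. Over all genes with enough UMIs, 34.65% and 40.1% were higher, with medians of -0.23 and -0.39, on totals outside hemoglobin. The exception at 28 hpf was *tfr1a*. *cahz*, a carbonic anhydrase of red cells, was at 17.99 UMIs per 10000 outside hemoglobin in cells with 20 to under 50% globin and at 34.1 in cells with 50 to under 80%. *hemgn*, a nuclear protein of erythroid cells, was at 6.80 and 16.45. Median genes per cell were 2606 and 1918 in these ranges at 28 hpf. The lowest range at 60 hpf held only 19 cells, which were shallower and had more genes. Their medians were 14765 UMIs and 2518 genes, against 29078 and 1586 in the 258 cells with 50 to under 80% globin. The part of this in the 60 hpf ratios was not tested. At 60 hpf *cahz* was at 14.2, 67.9 and 107.1 over the 3 ranges of globin content, and *hemgn* at 5.71, 28.8 and 38.8.

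The adult globin genes had few UMIs. The 7 other hemoglobin identifiers of the files held 6005 UMIs in erythroid cells at 28 hpf and 4030 at 60 hpf, or 0.0415% and 0.0303% of the UMIs of the listed genes. Most of these were from *zgc:163057* (ENSDARG00000045144), named *hbae4* in the RefSeq table, an embryonic alpha-type gene that was not among the listed symbols, with 5061 and 3844 UMIs in 710 of 722 and 525 of 541 cells. The remaining 6 identifiers, all of *hbaa1*, *hbaa2*, *hbba1*, *hbba2* and si:ch211-5k11.8, held 944 UMIs at 28 hpf and 186 at 60 hpf. For *hbaa1* there were 515 UMIs in 80 cells at 28 hpf and 64 in 27 cells at 60 hpf.

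Of the 10 members, 1 (*hbbe2*) was at least 2-fold higher at 60 hpf and 1 (*hbbe3*) at least 2-fold lower in UMIs per 10000 of erythroid cells. Over all 10812 genes with 20 or more UMIs in either stage, 8.67% were higher and 29.4% lower by this rule of size, so 1 in 10 is near the background in the first direction and under it in the second. The rule depends on the totals, since the globins took 59.45% and 78.5% of the UMIs. With hemoglobin and mitochondrial genes left out of the totals, 8 members were higher and 1, again *hbbe3*, was lower, beside 27.6% and 9.97% of all genes. As the members are not in these totals, the larger globin part of the UMIs at 60 hpf shifts all of them up on this scale. The 8 are therefore not read as an excess over the share of all genes. The median log2 ratio of all genes was -0.46 with all UMIs and 0.45 with these totals, and that of the members 0.43 and 1.35. On the second scale *hbbe3* was at -1.13, *hbbe2* at 2.61 and *hbbe1.1* at 0.50, the last of which was at -0.41 with all UMIs, so its direction turned with the totals.

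The other genes of the erythroid program were read from lists of known function. Between the stages, 8.67% of all genes were higher and 29.4% lower at 60 hpf per 10000 UMIs, with a median log2 ratio of -0.46. With the totals outside hemoglobin and mitochondrial genes, 27.6% were higher and 9.97% lower, with a median of 0.45. The counts of the lists stand beside these shares, and no list was tested against them. Of 10 genes of heme synthesis, which supplies the group that globin chains bind, 9 were at least 2-fold higher in erythroid than in neural-like cells at both stages, with *alas1*, the form used in other tissues, as the exception. Between the stages, 0 were higher and 5 lower at 60 hpf per 10000 UMIs, with a list median of -1.01, and 1 was higher and 2 lower with the totals outside hemoglobin and mitochondrial genes, with a median of -0.09. The latter 2 were *cpox* at -1.57 and *urod* at -1.18, and the 1 higher was *alas1* at 1.57. The others on this scale were *hmbsa* at -0.98, *ppox* at -0.30, *alad* at -0.24, *fech* at 0.06, *uros* at 0.24 and *hmbsb* at 0.30. *alas2* was at -0.21 on the first scale and 0.71 on the second.

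Of the membrane and skeleton genes, 10 of 12 were found and 9 of these were higher in erythroid cells at both stages, among them *slc4a1a* and the skeleton gene *epb41b*. The exception, *ank1b*, was lower, with log2 ratios to neural-like cells of -2.695 at 28 hpf and -2.717 at 60 hpf. Between the stages 0 of 9 with enough UMIs were past 2-fold per 10000 UMIs in either direction, beside 8.67% higher and 29.4% lower of all genes. On the second scale 1 was higher, *tmod4*, a tropomodulin, at 1.82, with a list median of 0.42.

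Of the regulators, 14 of 15 were found, and 13 of the 13 with enough UMIs at 28 hpf and 12 of 14 at 60 hpf were higher in erythroid cells. The exceptions at 60 hpf were *bcl11aa* and *bcl11ab*, with log2 ratios to neural-like cells of -0.71 and -1.83. In neural-like cells *bcl11aa* was at 0.0487 UMIs per 10000 at 28 hpf and 0.534 at 60 hpf. Between the stages 0 regulators were higher and 6 of 13 lower in erythroid cells per 10000 UMIs, beside 8.67% and 29.4% of all genes. The list median was -0.99, against -0.46 over all genes. On the second scale 2 were lower, *zfpm1*, a cofactor of GATA factors, at -1.11 and *klf3* at -1.05, and 1 was higher, *hemgn*, at 1.22, with a list median of -0.07. *klf17*, a factor of the first erythroid cells, was at -0.87 and *gata1a* at -0.07 on this scale. *sox6* and *bcl11aa*, whose mammalian counterparts repress embryonic or fetal globin genes, were at 0.28 and 0.88 on it. With all UMIs they were at -0.64 and -0.04, so their signs turned with the totals. These ratios came from 1626 and 727 UMIs of *sox6* and 175 and 118 of *bcl11aa*.

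Of 13 symbols of iron and oxidant handling, 11 were higher in erythroid cells at both stages. The exceptions were *tfr1b*, with log2 ratios to neural-like cells of 0.04 at 28 hpf and -1.51 at 60 hpf, and *cat*, with 0.16 and -0.29. Between the stages 3 were higher and 3 lower of the 12 identifiers with enough UMIs, beside 8.67% and 29.4% of all genes. The list median was 0.06. On the second scale 6 were higher and 0 lower, beside 27.6% and 9.97% of all genes. The list median was then 0.98, against 0.45 over all genes. *tfr1a*, the transferrin receptor of erythroid cells, was at -1.84 on the first scale and -0.92 on the second, and *slc25a37*, the mitochondrial iron carrier, at -1.71 and -0.79. *cahz* was at 0.54 and 1.45.

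The genes whose levels were most like the summed embryonic globins were ranked by Pearson correlation of log2 levels over 36 groups of cells, each a cluster in a library with at least 20 cells. Leading were *slc4a1a* (0.96), *hemgn* (0.96) and *alas2* (0.96), followed by BX005417.1 (0.94), si:ch211-207c6.2 (0.93), si:ch211-250g4.3 (0.93), *nt5c2l1* (0.93), *epb41b* (0.93), *hmbsb* (0.93) and *nmt1b* (0.92). The groups share their libraries, and the erythroid clusters stand far from the others, so this is a description of that contrast.

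Outside the erythroid cells every listed gene was also found. Neural-like cells, 4947 at 28 hpf and 4059 at 60 hpf in clusters with markers of neural progenitors, neurons, oligodendrocytes or floor plate, had a globin level of 24.2 (24.1 to 24.4) per 10000 UMIs in the 28 hpf library and of 21.5 (21.3 to 21.6) in the 60 hpf library, with exact Poisson intervals. The median cell held 15 and 16 globin UMIs, and 99.98% and 100% of the cells held at least 1. When each cell was weighted equally, the mean levels were 29.1 and 32.9 per 10000, which turns the order of the stages, so no difference in level between them is read from these values. Muscle-like cells held a median of 20 globin UMIs at 28 hpf and 18 at 60 hpf, and at 60 hpf skin-like and immune-like cells held 22 each and mesenchyme-like cells 16, at median depths from 9072 to 17581 UMIs. Clusters that no marker list named held a further 2678 cells at 28 hpf and 642 at 60 hpf. Some of these clusters had the neuron marker *gad1b* among their leading genes, but they were not counted as neural-like. Their globin level was 18.9 per 10000 UMIs at 28 hpf and 29.96 at 60 hpf.

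The division among the genes in neural-like cells was that of their own library. The share of globin UMIs that would have to move between genes to match the erythroid cells of the same library was 2.51 points at 28 hpf and 2.93 at 60 hpf. Against the erythroid cells of the other library it was 15.3 and 17.7 points, and between the erythroid cells of the libraries 16.9. Thus *hbbe3* gave 13.9% of the globin UMIs of neural-like cells at 28 hpf and 2.34% at 60 hpf, a log2 ratio of -2.57 (-2.64 to -2.50). *hbbe1.3* gave 27.35% and 39.5%, *hbbe1.1* 9.71% and 5.30%, and *hbbe2* 0.780% and 1.74%. The shares did not match fully: at 60 hpf *hbae1.2* was at 8.77% (8.57 to 8.96) in neural-like and 10.6% in erythroid cells, and at 28 hpf *hbbe1.3* was at 27.35% (27.1 to 27.6) and 25.5%.

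**Figure D4:**
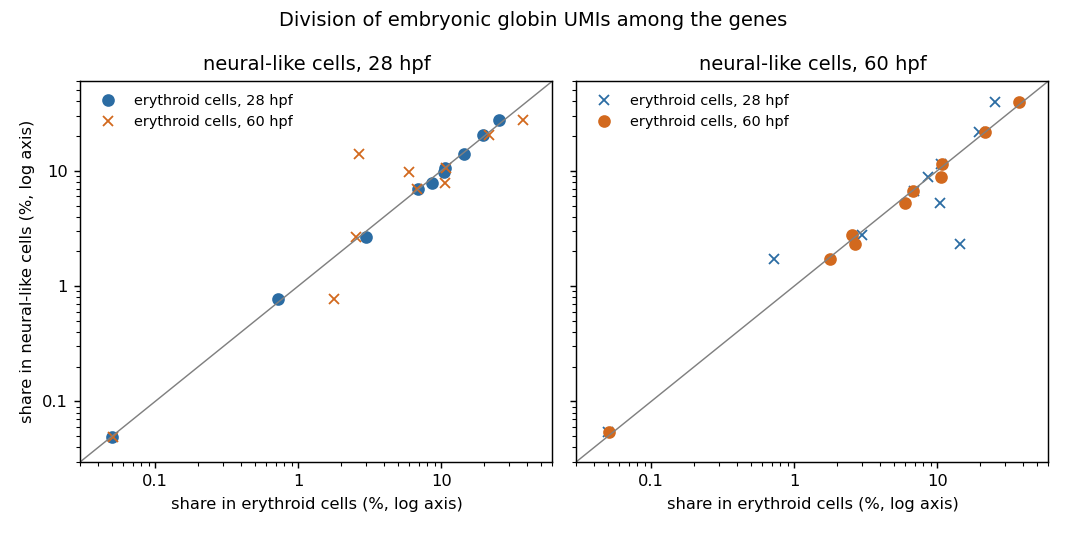
Share of each embryonic globin gene in the embryonic globin UMIs of neural-like cells (vertical, log axis) against its share in erythroid cells (horizontal, log axis), at 28 hpf (left) and 60 hpf (right). Circles set neural-like cells against erythroid cells of the same library and crosses against those of the other library. The line marks equal shares, and the circles lie nearer to it. The share that would have to move between genes to match was 2.51 and 2.93 points for circles, against 15.3 and 17.7 for crosses.

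The number of globin UMIs in a neural-like cell differed less than its depth. From the shallowest to the deepest of 4 equal groups of cells, median depth went from 3786 to 12603 UMIs at 28 hpf, or 3.33-fold, and the median globin count from 13 to 18, or 1.38-fold. At 60 hpf depth went from 2797 to 16138 UMIs, or 5.77-fold, and globin counts from 13 to 22, or 1.69-fold. The level per 10000 therefore went down with depth, from 43.75 to 18.3 at 28 hpf and from 54.8 to 13.3 at 60 hpf. Where these UMIs came from was not tested.

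**Figure D5:**
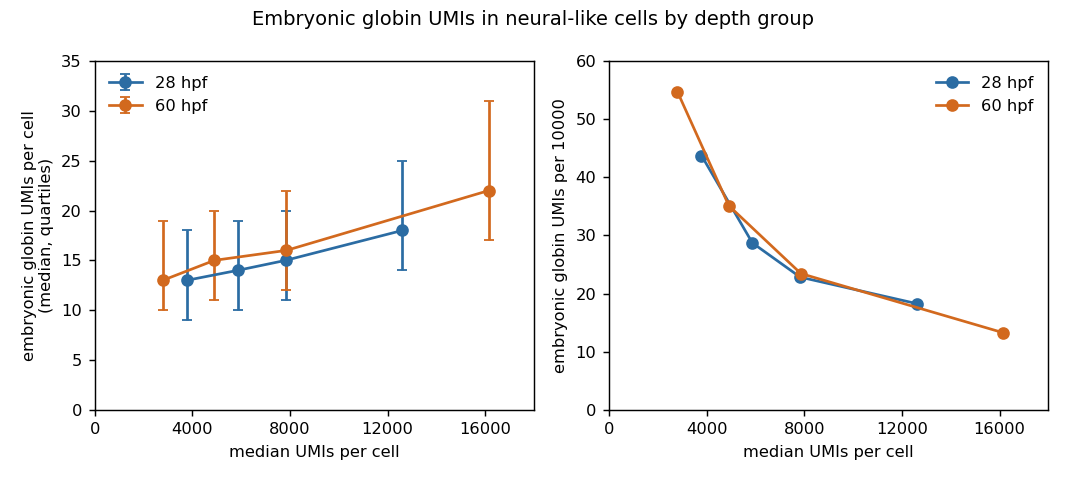
Embryonic globin UMIs in neural-like cells in 4 equal groups by depth, at 28 hpf (blue) and 60 hpf (orange), against the median UMIs per cell of the group. Left, median globin UMIs per cell with quartiles, from 13 to 18 and from 13 to 22; right, globin UMIs per 10000, from 43.75 to 18.3 and from 54.8 to 13.3.

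Shares of neural-like cells with a UMI followed the abundance of each gene. Thinned to 2000 UMIs per cell, which left out 60 cells at 28 hpf and 132 at 60 hpf, 68.7% and 80.9% of neural-like cells held *hbbe1.3*, 47.0% and 12.9% *hbbe3*, 3.66% and 9.73% *hbbe2*, and 0.184% and 0.229% *hbae5*. Without thinning these shares were 96.8% and 99.1%, 85.5% and 33.3%, 12.8% and 26.4%, and 0.849% and 0.986%. In erythroid cells thinned alike, *hbbe1.3* was found in 100% of cells at both stages and *hbae5* in 39.3% and 37.15%, heights that the rule for erythroid cells helps to set.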

How the data were processed

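Single-cell RNA was measured in 2 libraries, grouped by the stage in their labels. The deposited tables hold raw UMI counts for each gene in each droplet, which the authors made with Cell Ranger 5.0.0 (file header) on GRCz11 (processing notes) and did not normalize. Droplets with under 1000 genes were left out, as in the study. The libraries held 95108584 and 70432500 UMIs. The genes, lists and ranges were chosen with earlier results of these data known. All members are named, with fixed lists and the 10 most correlated genes.

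Both libraries were clustered together in scanpy 1.11.5 without hemoglobin genes (4000 variable genes, 50 components, 15 neighbours, Louvain resolution 1 with igraph 0.11.9, seed 7) and clusters named from markers. Names ending in -like mark these rebuilt classes. Doublets were predicted by Scrublet score and removed in an alternative alone. Levels are summed UMIs per 10000. The rule of size asked for 2-fold, 20 UMIs in either group and a pseudocount of 1 UMI. In simulated counts between the erythroid cells of the stages it found 197 of 200 genes changed 3-fold with at least 50 expected UMIs, and also called 123 of 10202 unchanged genes. The simulation held counting error only, without variation between cells, embryos or libraries, so it gives no error rate for the calls between stages. No sequence was printed. Numpy 2.4.6, scipy 1.17.1, pandas 2.3.3 and matplotlib 3.10.9 were used. Alternatives changed the gene minimum, the threshold, doublets, the mean, the totals and the resolution.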

Additional observations from a re-analysis of the deposited data

How the results depend on the processing

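The filter on genes mattered most for the number of erythroid cells at 60 hpf, which was 846 at a minimum of 500 genes and 953 with none, against 541. The alpha share at 28 hpf was 38.56% with a threshold of 50% globin and 38.16% as a mean over cells, and at 60 hpf 41.47% at 500 genes and 41.49% with no minimum. Over 120 alternatives for the shares of single members, 66 stayed within counting error, and the largest move was 1.096-fold. Of 76 alternatives for the ratios between stages, 22 stayed within counting error and 53 moved past it. In the remaining 1 *hbbe1.2* changed sign, at -0.11 in cells of 50 to under 80% globin, an alternative chosen after seeing the data. Among the 53, *hbae5*, whose interval includes 0, changed sign in 1, at -0.09 as a mean over cells. Globin UMIs per 10000 in neural-like cells at 28 hpf were 26.6 at 500 genes, 20.9 in cells under 1% globin, 24.4 with totals outside hemoglobin and mitochondrial genes, 29.1 as a mean over cells and 25.1 at resolution 2. At 60 hpf they were 25.7, 19.6, 21.7, 32.9 and 21.3, and 22.5 without predicted doublets. Genes 2-fold higher at 60 hpf were 1578 at 1.5-fold, 499 at 50 UMIs and 2984 with the other totals, and lower ones 4802 at 1.5-fold and 1078 with those totals. The causes were not tested. No paired analysis was possible because each stage has 1 library. Depth limited *hbae5*, with a median of 7 and 5 UMIs per erythroid cell.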

Other observations

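Droplets with under 1000 genes held further globin-rich droplets. At 28 hpf 58 of 1734 such droplets, and at 60 hpf 412 of 2388, had 20% or more of their UMIs from the embryonic globins, with medians of 639 and 720 genes. *hbbe3* gave 12.2% of their globin UMIs at 28 hpf and 1.79% at 60 hpf. The division among the genes was 3.46 and 1.74 points from that of the erythroid cells of the same library. By *hbbe1.1*, 9 of these droplets were under 0.5%, 4 at 0.5 to under 1% and 45 at 1% or more at 28 hpf, and 186, 5 and 221 at 60 hpf.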
